A study of Arabidopsis thaliana with 6 samples.

Results

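AT2G21640, GRX480 and PUB19 are 3 stress genes of Arabidopsis thaliana, taken here from 13286 genes that had a named probe set. They were chosen by locus, with their NJ15 minus mock differences in these same arrays already known, so those differences are given as a description and were not tested. Each of the 3 genes had 1 probe set, and none was lost to a filter. The samples were whole seedlings of the Col-0 wild type that had grown upright on MS plates for 4 days. In the NJ15 group they were sprayed with 10 µM NJ15, a small molecule in which a tetrazole ring joins a dichlorophenyl group to the ethyl ester of acetic acid. In the mock group they were sprayed with mock. Seedlings of both groups were rotated by 90 degrees and harvested 8 h later. Each group has 3 arrays, labelled as biological replicates, and precision is limited by this number of arrays.

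Mitochondria that meet oxidative stress send signals to the nucleus, where NAC transcription factors switch on a set of nuclear genes, and AT2G21640 is widely used as a marker of that response. GRX480, also called ROXY19, encodes a plant-specific glutaredoxin that binds TGA transcription factors. Salicylate induces it through those factors, and it can dampen jasmonate defence genes and detoxification genes. PUB19 encodes a ubiquitin ligase with a U-box domain that attaches ubiquitin to target proteins. Drought and abscisic acid induce it, and together with its close relative PUB18 it restrains abscisic acid responses.

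Of the 22746 probe sets tested, 16602 (73.0%) had 6 values within 0.01 log2 units of each other. They are called flat here, and the other 6144 are called varying. AT5G64400, a flat example, stood at 11.44 on all 6 arrays, with an SD of 5.8e-09 log2 units in each group. A flat probe set is therefore read as uninformative and not as an unchanged level. What made these values so alike was not tested. A gene is called measured where the annotation used here gave it a probe set of its own. Mock replicates 1 and 3 lay farthest from the other arrays of their group, with root mean square distances over varying probe sets of 0.57 and 0.60 log2 units, against 0.28 to 0.33 for the other 4 arrays. Green tissue markers, of which 5 of 24 were measured and all varied, had mean log2 levels of 10.72, 11.35 and 11.29 in NJ15 replicates 1 to 3 and 10.33, 11.14 and 11.74 in mock replicates 1 to 3, so the groups overlapped (two-sided exact permutation test, p = 0.9). All 3 measured root markers of 18 were flat. The difference between the 3 prime and 5 prime probe sets of the GAPDH control was 0.82, 1.09 and 1.10 in NJ15 and 1.37, 1.42 and 1.35 in mock arrays for the older probe sets. For the newer ones it was 0.20, 0.23 and 0.21 in NJ15 and 0.14, -0.17 and 0.0040 in mock arrays. Both differences separated the groups, in opposite directions (two-sided exact permutation test, p = 0.1 each, the smallest that 3 against 3 allows, and 0.2 after adjustment over 4 such tests). For the ubiquitin control the difference was 0.47 ± 0.056 in NJ15 and 0.62 ± 0.15 in mock arrays (SD, n = 3 each; exact permutation test, p = 0.3). The part of RNA quality in the values below was not tested.

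AT2G21640 had the widest spread of the 3 genes. Its log2 level was 9.92, 9.24 and 6.95 in NJ15 replicates 1, 2 and 3, against 8.41, 6.55 and 5.95 in mock replicates 1, 2 and 3. NJ15 replicates 1 and 2 lay above every mock array, but NJ15 replicate 3 lay below mock replicate 1, so the groups overlapped. The means were 8.70 ± 1.56 in NJ15 and 6.97 ± 1.28 in mock seedlings (SD, n = 3 each), a difference of 1.73 log2 units or 3.32-fold. That difference was 1.21 times the pooled SD of 1.43, and 99.6% of varying probe sets had a smaller pooled SD. The difference fell to 1.12 when NJ15 replicate 1 was left out, and it was 2.61 without NJ15 replicate 3 and 2.45 without mock replicate 1. In whole seedlings, a level set by fewer cells of a type and one set by less RNA per cell cannot be told apart.

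GRX480 had log2 levels of 7.77, 8.84 and 7.45 in NJ15 replicates 1, 2 and 3, against 7.66, 6.67 and 6.31 in mock replicates 1, 2 and 3. NJ15 replicate 2 stood alone at the top, and the other NJ15 arrays lay close to mock replicate 1. The lowest NJ15 array minus the highest mock array was -0.21 log2 units, so the groups overlapped. The means were 8.02 ± 0.73 in NJ15 and 6.88 ± 0.70 in mock seedlings (SD, n = 3 each), a difference of 1.14 log2 units or 2.20-fold. Without NJ15 replicate 2 the difference was 0.73, and without mock replicate 1 it was 1.53.

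PUB19 was the one member whose groups did not overlap. Its log2 level was 8.62, 9.29 and 7.57 in NJ15 replicates 1, 2 and 3, against 7.14, 6.58 and 6.64 in mock replicates 1, 2 and 3. The lowest NJ15 array stood 0.43 log2 units above the highest mock array. The 3 mock arrays spanned 0.55 log2 units, while the NJ15 arrays spanned 1.73. The means were 8.49 ± 0.87 in NJ15 and 6.79 ± 0.30 in mock seedlings (SD, n = 3 each), a difference of 1.70 log2 units or 3.26-fold, which is 2.61 times the pooled SD of 0.65. Leaving out single arrays gave 1.30 to 2.17.

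**Figure D1:**
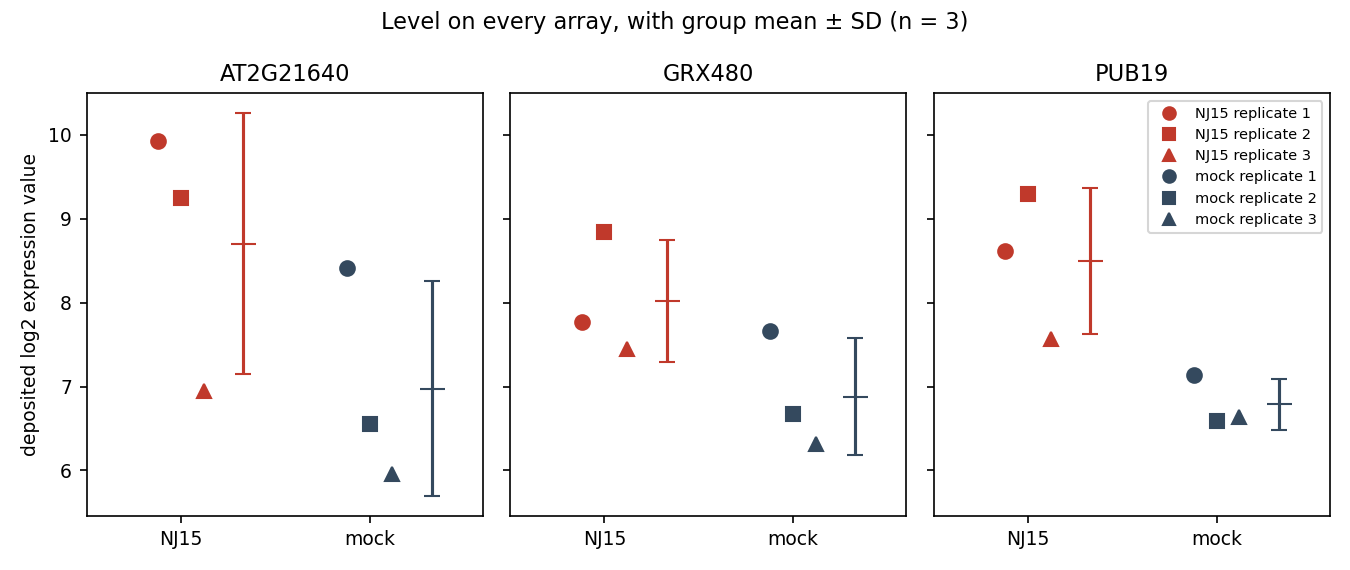
Deposited log2 expression value (vertical axis) of AT2G21640, GRX480 and PUB19 on each NJ15 array (red, left) and mock array (dark blue, right), with replicate numbers as symbols and the group mean ± SD (n = 3) beside the points. PUB19 is the gene whose 3 NJ15 arrays, at 7.57 to 9.29, all lie above its mock arrays, at 6.58 to 7.14.

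All 3 genes were at least 1 log2 unit higher in NJ15 seedlings, as were 163 of the 6144 varying probe sets (2.65%). Every NJ15 array lay above every mock array in 6.51% of varying probe sets and below every mock array in 5.96%, which are the backgrounds for the separation of PUB19. Since the members were chosen on this contrast, nothing is read from these shares. Among varying probe sets the differences ranked 58 for AT2G21640, 62 for PUB19 and 131 for GRX480.

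The members shared part of their array order. Mock replicate 1 was the highest mock array and NJ15 replicate 3 the lowest NJ15 array for all 3 genes. Mock replicate 1 exceeded the mean of the other mock arrays by 2.16 log2 units for AT2G21640, 1.17 for GRX480 and 0.52 for PUB19. The same order held in 945 varying probe sets (15.4%), and in 90 of the 163 that were at least 1 log2 unit higher in NJ15 (55.2%). The highest array differed between members. AT2G21640 peaked in NJ15 replicate 1, as did 54 of those 163 probe sets, and GRX480 and PUB19 peaked in NJ15 replicate 2, as did 100 of them.

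**Figure D2:**
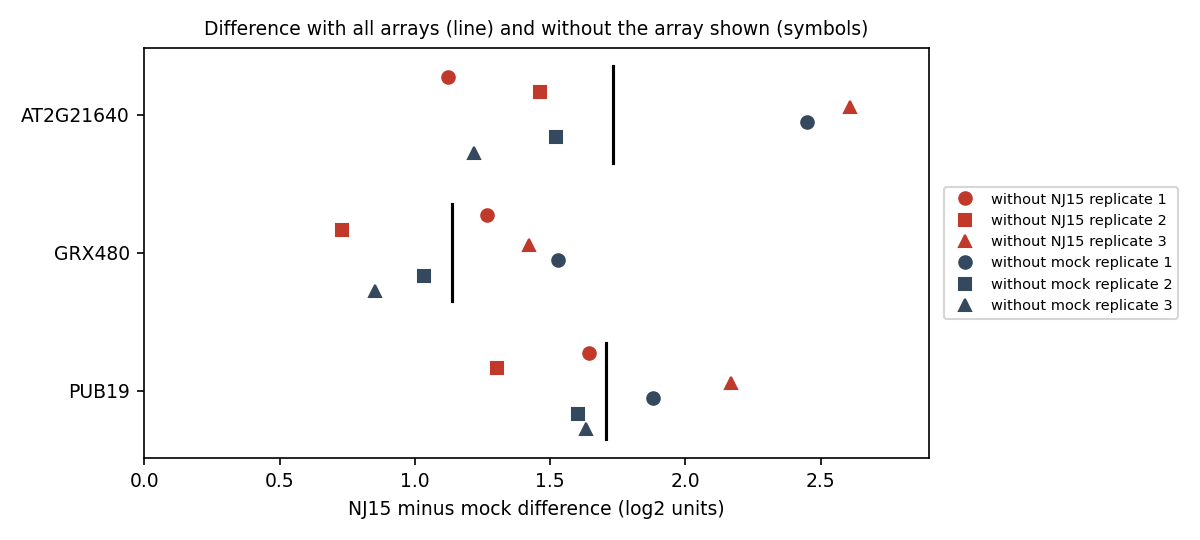
NJ15 minus mock difference in log2 units (horizontal axis) of AT2G21640, GRX480 and PUB19 with all 6 arrays (black line) and without the 1 array that each symbol names. All values are positive, from 0.73 for GRX480 without NJ15 replicate 2 to 2.61 for AT2G21640 without NJ15 replicate 3.

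Other genes of the same pathways were read in the fit over all probe sets, in which limma called 19 probe sets higher (0.0835%) and 25 lower (0.110%) in NJ15 at an adjusted p under 0.05, 40 of these 44 on flat probe sets. Of 271 further genes in 10 lists, 75 were measured and 28 varied. Those not measured had no named probe set of their own. They may still have values among the 8730 probe sets that the annotation did not list. None of the 75 was called by limma, and 4 of the varying 28 had an unadjusted p under 0.05. A fit over varying probe sets alone called 4 probe sets (0.0651%), each of them higher in NJ15 seedlings, but none of the 28, of which 5 had an unadjusted p under 0.05. The median difference over all varying probe sets was -0.0062 log2 units, and 46.9% of them were above 0.

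Mitochondrial and organelle stress genes, the surroundings of AT2G21640, had 12 of 31 further members measured and 7 varying. All 7 differences were above 0, with a median of 0.41 log2 units (0.64 without NJ15 replicate 3), and none was called. These 7 are not independent results, as their r with AT2G21640 over the 6 arrays was 0.72 to 0.97. The list was also chosen with earlier results of these data known. AT5G51440, which encodes a small heat shock protein of mitochondria, had log2 levels of 10.30, 9.20 and 9.13 in NJ15 arrays against 6.24, 6.19 and 5.36 in mock arrays. It was the only one of the 7 whose groups did not overlap, and its difference of 3.61 ± 0.47 (standard error) did not pass (limma, adjusted p = 0.366 over all probe sets and 0.0965 over varying ones). Mock replicate 1 did not stand out in it, at 6.24 beside 6.19 in mock replicate 2.

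NDB2 and NDB3 encode alternative NAD(P)H dehydrogenases of the mitochondrial inner membrane. For NDB2 the 3 mock arrays lay within a narrow band, at 7.97, 8.01 and 7.99, while the NJ15 arrays stood at 8.75, 8.51 and 7.96. NJ15 replicate 3 thus lay just below the lowest mock array, and the difference of 0.41 did not pass (limma, adjusted p = 0.876). Leaving out NJ15 replicate 1 gave 0.24 for NDB2, and leaving out NJ15 replicate 3 gave 0.64. NDB3 had a difference of 0.11 (0.065 without NJ15 replicate 2) and AT5G09570 one of 0.40, both with overlapping groups. AT2G41730 stood at 8.72, 8.48 and 7.09 in NJ15 and 7.45, 7.25 and 6.62 in mock arrays, the same order of arrays within each group as AT2G21640. Its probe set is of a type whose probes can also bind related transcripts. AT1G19020 stood at 9.85, 9.82 and 9.001 in NJ15 and 9.28, 8.78 and 7.92 in mock arrays, again with NJ15 replicate 3 below mock replicate 1. The differences of 0.99 for AT2G41730 and 0.895 for AT1G19020 did not pass (limma, adjusted p = 0.876 and 0.862). The AT2G41730 difference was 1.495 without NJ15 replicate 3, and that of AT1G19020 was 0.52 without mock replicate 3. Flat members were NDC1, NDB1, NDB4, AT5G64400 and AT1G24095.

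Antioxidant and reactive oxygen signalling genes had 3 of 28 members measured, all varying and none called, with a median difference of 0.85 log2 units (0.46 without NJ15 replicate 2 and 1.47 without NJ15 replicate 3). That median is the difference of AT5G43450 alone, with STZ above it at 2.82 and GR1 below it at -0.055. STZ, a zinc finger repressor induced by many stresses, had 10.80, 11.86 and 9.54 in NJ15 arrays against 9.93, 6.94 and 6.90 in mock arrays. As with GRX480, NJ15 replicate 2 was the highest array and mock replicate 1 exceeded NJ15 replicate 3. AT5G43450 had 8.31, 8.64 and 6.63 in NJ15 arrays against 7.63, 6.44 and 6.94 in mock arrays, so NJ15 replicate 3 lay below 2 mock arrays. GR1, which encodes a glutathione reductase, had 9.45 ± 0.035 in NJ15 and 9.51 ± 0.20 in mock seedlings (SD, n = 3 each).

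**Figure D3:**
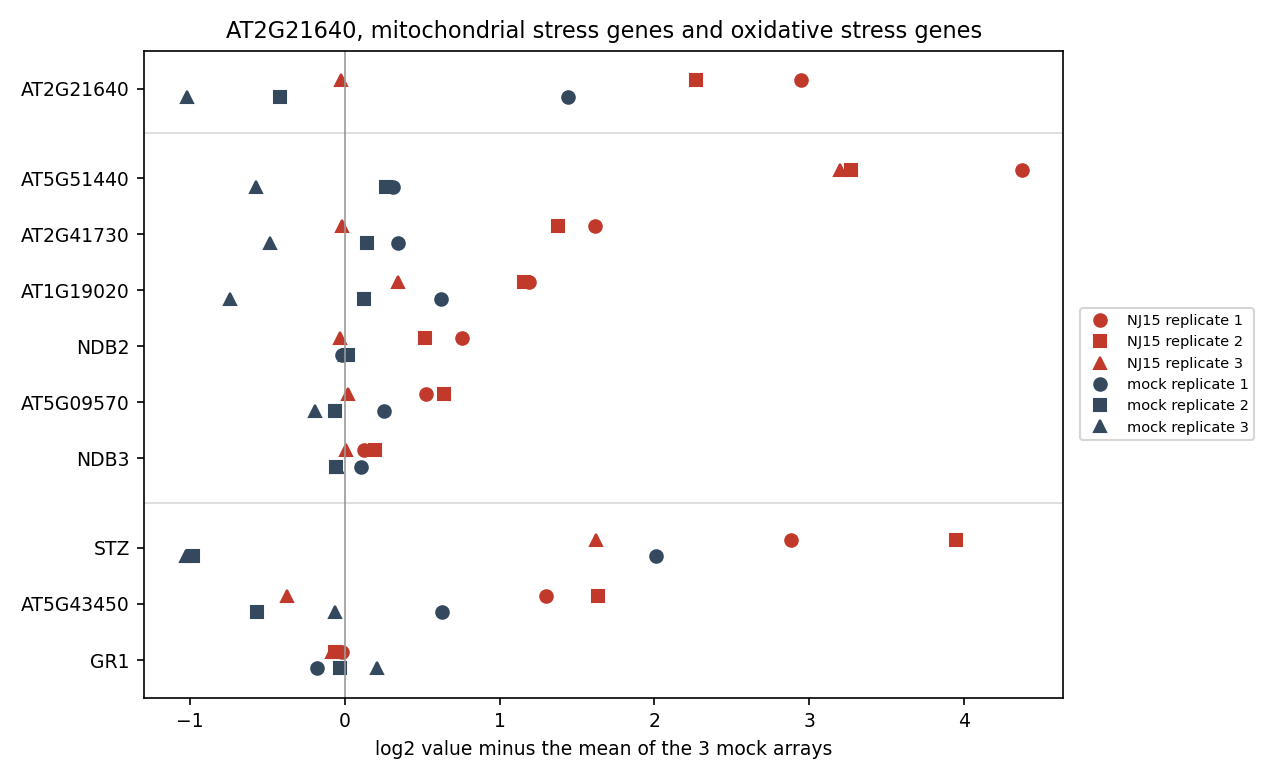
Log2 value of each array minus the mean of the 3 mock arrays of that gene (horizontal axis) for AT2G21640 (top), 6 mitochondrial stress genes (middle) and 3 oxidative stress genes (bottom), NJ15 arrays in red above mock arrays in dark blue. AT5G51440 is the row in which the groups are apart, with NJ15 arrays at 9.13 to 10.30 and mock arrays at 5.36 to 6.24 before the shift, and in most other rows NJ15 replicate 3 lies among the mock arrays.

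Salicylate synthesis and signalling, the setting of GRX480, had 6 of 34 further members measured, and WRKY53, SAG101, BSMT1, UGT74F1 and AT4G26120 were flat. UGT76B1, which encodes a glycosyltransferase acting on salicylate and on an amino acid derivative, was the varying one. It had 8.30, 8.41 and 8.65 in NJ15 arrays against 8.46, 8.98 and 8.01 in mock arrays, so all NJ15 arrays lay within the mock range (difference -0.035; limma, adjusted p = 1). The 3 measured jasmonate and ethylene defence genes of 17, PDF1.2, THI2.1 and JMT, were flat.

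Of 28 other glutaredoxins 19 were measured, and 16 of these were flat, among them ROXY1 and ROXY2 of floral development. The 3 varying ones had a median difference of 0.10 log2 units (between -0.033 without mock replicate 2 and 0.32 when mock replicate 3 was left out), and none was called. GRXC2, a glutaredoxin of the type shared with animals and yeast, had 10.92, 10.58 and 10.41 in NJ15 arrays against 10.18, 10.32 and 10.44 in mock arrays, with an overlap between NJ15 replicate 3 and mock replicate 3. AT5G18600 had 8.90 ± 0.60 in NJ15 and 9.22 ± 0.47 in mock seedlings, and AT2G30540 had 7.52 ± 0.21 in NJ15 and 7.42 ± 0.38 in mock seedlings (SD, n = 3 each). NJ15 replicate 2, where GRX480 peaked, was the highest array in none of these 3 genes.

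TGA factors and their detoxification targets had 4 of 32 members measured, with no TGA factor among them. All 4 varied and had every NJ15 array above every mock array, against 6.51% of varying probe sets. The list was chosen with earlier results of these data known, so nothing is read from that share. The median difference was 1.02 log2 units, and none was called by limma, with 3 at an unadjusted p under 0.05. AER, an alkenal reductase with a difference of 1.71 (limma, adjusted p = 0.746), had 9.93, 9.56 and 8.74 in NJ15 arrays against 7.35, 7.40 and 8.34 in mock arrays. Its highest mock array was replicate 3, the lowest one for GRX480. GSTU25, a glutathione transferase, had a difference of 1.57, and the glycosyltransferases UGT73B4 and UGT73B5 had 0.47 and 0.45 (limma, adjusted p = 0.830, 0.373 and 0.715). The separation of GSTU25 was narrow, with 10.42, 9.02 and 8.283 in NJ15 arrays against 8.279, 7.58 and 7.15 in mock arrays, and its difference was 0.98 without NJ15 replicate 1.

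Among U-box ubiquitin ligases, PUB19 was 1 of 4 measured genes that varied, and 14 others were flat. The 3 further varying ones, PUB22, PUB23 and PUB24, encode related ligases that dampen immune responses, and PUB22 and PUB23 also act in drought responses. Their median difference was 0.64 log2 units (0.30 without mock replicate 3 and 0.43 without NJ15 replicate 2), with none called. PUB23 had 8.57, 9.21 and 7.65 in NJ15 arrays against 8.52, 7.21 and 7.16 in mock arrays. PUB22 had 8.29, 8.93 and 8.27 in NJ15 arrays against 8.43, 7.97 and 7.17 in mock arrays. Both peaked in NJ15 replicate 2, as PUB19 did, but in both mock replicate 1 exceeded NJ15 replicate 3. The differences of 0.85 for PUB23 and 0.64 for PUB22 did not pass (limma, adjusted p = 0.943 and 0.937), and PUB24 had a difference of -0.024. For PUB23 the difference was 0.48 without NJ15 replicate 2 and 1.29 without mock replicate 1, and for PUB22 it was 0.30 without mock replicate 3 and 0.43 without NJ15 replicate 2. PUB18 had no named probe set and was not analysed here.

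PUB19 is known to restrain abscisic acid responses, and its effect on the genes listed here was not tested. Abscisic acid and drought genes had 3 of 26 members measured, 2 of them varying and none called. The varying 2 had a median difference of 0.19 log2 units (0.07 both without NJ15 replicate 1 and without mock replicate 3, and 0.31 both without mock replicate 1 and without NJ15 replicate 3). COR47, a dehydrin of cold and drought, had 11.47, 11.10 and 11.14 in NJ15 arrays against 11.10, 10.93 and 10.96 in mock arrays. The NJ15 and mock groups did not overlap, with 0.0028 log2 units between the nearest arrays. Its difference of 0.24 did not pass (limma, adjusted p = 0.856), and it was 0.12 without NJ15 replicate 1. LTI30, another dehydrin, had 9.19 ± 0.35 in NJ15 and 9.05 ± 0.41 in mock seedlings (SD, n = 3 each). COR15A was flat.

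**Figure D4:**
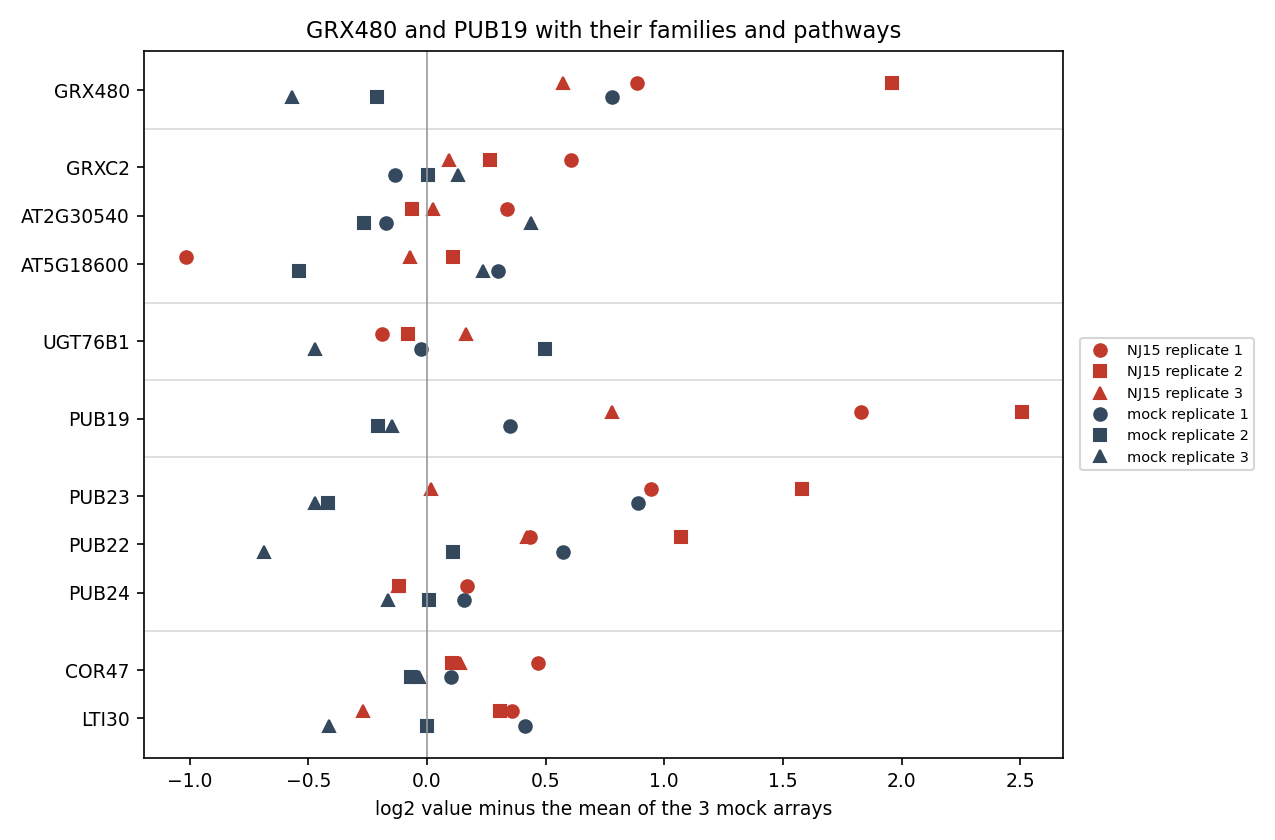
Log2 value of each array minus the mean of the 3 mock arrays of that gene (horizontal axis), NJ15 arrays in red above mock arrays in dark blue, for GRX480, 3 glutaredoxins, the salicylate gene UGT76B1, PUB19, 3 U-box ligases and 2 drought genes from top to bottom. The rows of PUB19 and COR47 have groups apart, with differences of 1.70 and 0.24.

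Likeness to each member was measured by Pearson's r over the 6 arrays among 596 other genes whose values spanned at least 1 log2 unit. Such r values rest on 6 points in 2 groups, with the same 6 arrays for every gene, and they are given as a description. Genes picked by r tend to share the member's array order, so the overlap or separation of their groups follows largely from that choice. An r of at least 0.9 was found with 16 genes for AT2G21640, 54 for GRX480 and 49 for PUB19. The genes most like AT2G21640 were AT1G21680 (r = 0.958), AT2G41730 (0.951), AT2G16005 (0.941), AT1G19020 (0.938) and AT1G35210 (0.934), and all 5 had overlapping groups. AT2G16005 had 10.10, 9.67 and 8.40 in NJ15 arrays against 10.05, 8.23 and 8.04 in mock arrays, so mock replicate 1 was nearly as high as the highest NJ15 array.

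Closest to GRX480 were AT4G29780 (r = 0.995), AT2G39650 (0.993), AT2G27080 (0.992), AT3G04640 (0.992) and AT5G10695 (0.988). AT4G29780 had 9.25, 12.08 and 8.76 in NJ15 arrays against 9.14, 6.24 and 5.98 in mock arrays, the same order as GRX480 over a wider range. In each of these 5 genes mock replicate 1 lay above NJ15 replicate 3, as in GRX480. For PUB19 the list was AT3G19240 (r = 0.997), AT3G23170 (0.992), AT5G42050 (0.986), AT2G29500 (0.985) and AT1G76600 (0.967). In all 5 the groups were apart, as in PUB19 itself and in 6.51% of varying probe sets. Since these genes were picked by r with PUB19, nothing is read from that count. AT2G29500, a cytosolic small heat shock protein, had 9.26, 10.15 and 7.93 in NJ15 arrays against 6.54, 6.49 and 6.28 in mock arrays, a difference of 2.68 that did not pass (limma, adjusted p = 0.715). AT3G19240 had 9.49, 9.86 and 8.73 in NJ15 arrays against 8.46, 8.02 and 7.97 in mock arrays.

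**Figure D5:**
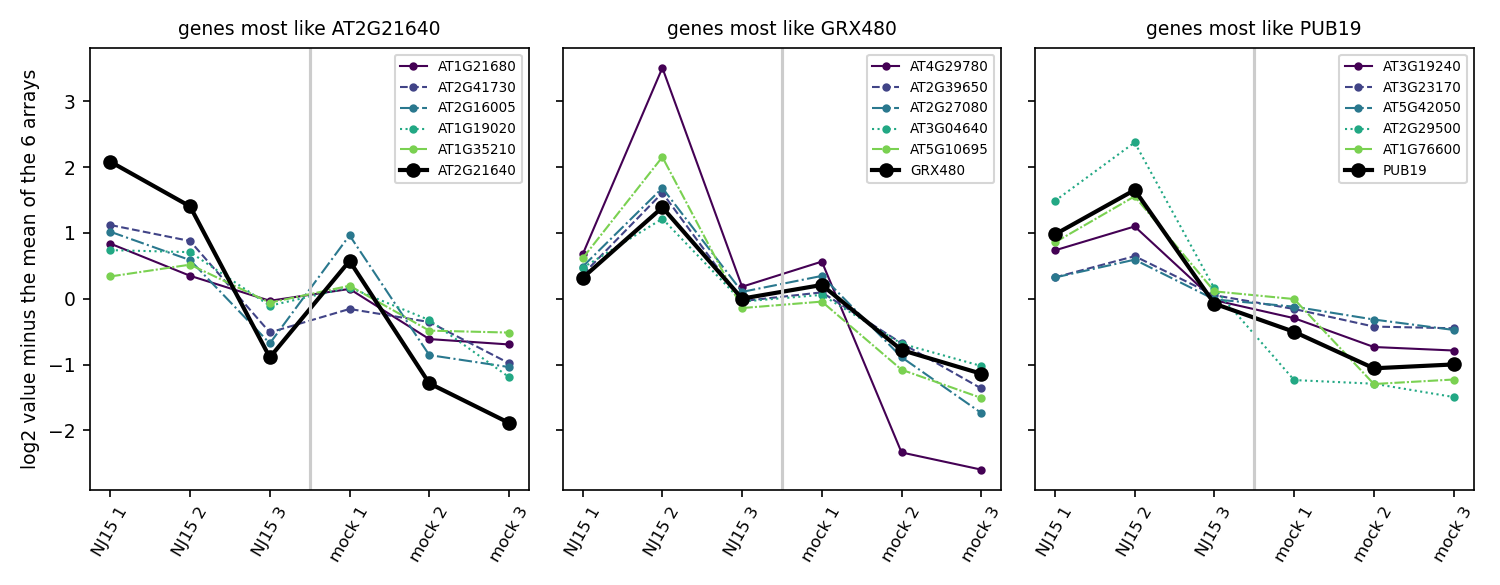
Log2 value minus the mean of the 6 arrays (vertical axis) on each NJ15 array and mock array (horizontal axis) for AT2G21640, GRX480 and PUB19 (black) and the 5 genes with the highest Pearson's r to each (coloured), with lines that join arrays to guide the eye only. AT2G21640 peaks in NJ15 replicate 1, at 9.92 before the shift, and GRX480 and PUB19 peak in NJ15 replicate 2, at 8.84 and 9.29.

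Position was compared last, with the 3 nearest protein-coding genes on each side of a member, a choice made after its values were seen. Next to AT2G21640, 3 of the 6 neighbours were not named on the array and 2 were flat. The other 1, RD2, varied, with a difference of 0.42 log2 units and groups apart, as in 6.51% of varying probe sets. Beside GRX480 none varied, with 2 flat and 4 not named on the array. Around PUB19, 2 neighbours varied, AT1G60160 and AT1G60200, with differences of 0.059 and -0.055 and overlapping groups, while 1 was flat and 3 were not named on the array.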

How the data were processed

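Total RNA of 6 samples was measured on 1 Affymetrix array each. The authors deposited 1 log2 value per probe set and array; the log base is read from the range of 5.30 to 14.04, with background correction and normalization not given in the sources used here. R 2.7.2 is named in the submitters' processing notes. How far signals exceeded background is unknown.

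The deposited values entered the fits unchanged, except that 64 control probe sets were left out. The NJ15 minus mock difference was fitted in R 4.3.3 with limma 3.58.1 (lmFit, eBayes) on values taken relative to 1 array of each probe set, with Benjamini-Hochberg adjustment over all 22746 probe sets and a threshold of 0.05. Tested on simulated data, this fit made more false calls than its threshold allows, so its count of calls is given as a background only. For tissue markers and RNA controls, exact permutation tests (two-sided, scipy 1.17.1) were used. The labels do not say whether replicates came from separate plates, so p-values set group differences against the spread between these samples only.

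Probe sets were named through the platform annotation and a TAIR10.1 gene table: 13513 had 1 gene (13436 matched a locus), 503 several, and 8730 were not listed. The probe set with the highest mean stood for a gene. The members and lists were chosen with earlier results of these data known. Named genes were the members, the 5 genes most like each by Pearson's r, and up to 6 varying members per list by smallest p; RD2, AT1G60160 and AT1G60200 were added by position. Promoter motifs were not analysed here. The alternatives were quantile normalization, centring each array on a common median, a filter on low means, varying probe sets only, an intensity trend with a robust prior, a replicate block, 1 probe set per gene and leaving out each array.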

Additional observations from a re-analysis of the deposited data

How the results depend on the processing

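The 3 members' differences kept their sign in every alternative run and moved by less than their pooled SD; without single arrays they lay between 1.12 and 2.61 for AT2G21640, 0.73 and 1.53 for GRX480 and 1.30 and 2.17 for PUB19. The limma count of 44 over all probe sets was 0 after quantile normalization and 17165 after centring. It was 1 without low means, 4 over varying probe sets, 0 with a trend and robust prior and 0 with the replicate block. With 1 probe set per gene it was 31, and it was 4 to 15 without single arrays. Over varying probe sets the count of 4 became 0 with the replicate block and 0 to 3 without single arrays. Among list genes, centring called 51, where none was called in the deposited values; flat probe sets are then shifted too. The median NJ15 minus mock difference over all probe sets was -0.013 log2 units under quantile normalization and -0.018 under centring. The median of the varying glutaredoxins lay between -0.033 and 0.32 without single arrays. With 1 array fewer, 494 to 749 varying probe sets had NJ15 above mock and 501 to 1081 below, since fewer arrays overlap less often.

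Signs turned without single arrays in these differences, given as lowest and highest: the mean of green tissue markers (-0.32 and 0.38), RCA (-0.69 and 0.20), LHCB4.1 (-0.12 and 0.34), LHCB4.2 (-0.41 and 0.54), SBPASE (-0.22 and 0.69), PRK (-0.17 and 0.16), AT5G18600 (-0.59 and 0.019), AT2G30540 (-0.033 and 0.32), UGT76B1 (-0.27 and 0.21), GR1 (-0.15 and 0.049), PUB24 (-0.12 and 0.054) and LTI30 (-0.073 and 0.34). The cause was not tested. Deviations of same-numbered arrays from their group means had r of 0.59, -0.30 and 0.19. Deviations within a group constrain one another, so these values cannot decide whether the numbers pair the samples, and the labels do not say. No member had several probe sets, so a mean over them was not run. The flat probe sets and 3 arrays a group limit what could be called.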
